A study of Homo sapiens with 15 samples.

Results

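The MAP kinase feedback genes described here are 10 human genes chosen by name: 6 dual-specificity phosphatases (DUSP1, DUSP4, DUSP5, DUSP6, DUSP8 and DUSP10), the Sprouty genes SPRY2 and SPRY4, and the Sprouty-related genes SPRED1 and SPRED2. They are 10 of the 47634 gene identifiers in each count table. All 10 were present in the tables, and 8 passed the filter on low counts, while DUSP4 and DUSP10 did not. RNA was taken from IGROV-CP20, an ovarian cancer line that tolerates cisplatin, and sequenced from the 3′ end of polyadenylated transcripts (QuantSeq). The 5 conditions were untreated cells, cells exposed to cisplatin alone (50 µM, 24 h), and cells that had received Tranilast, Telmisartan or Amphotericin B (each at 10 µM, 24 h) ahead of that exposure, with 3 libraries labelled as biological replicates in each. The 3 combinations share the same cisplatin libraries as their control, and no condition with a drug but without cisplatin was analysed here. All libraries come from this 1 line, so p-values measure the spread between its replicate samples.

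Growth factor receptors pass their signal through RAS to the kinases RAF, MEK and ERK, and active ERK switches on genes whose products shut the same route down. Dual-specificity phosphatases remove the phosphates that activate the MAP kinases ERK, JNK and p38, Sprouty proteins interrupt the route between receptor and RAF, and SPRED proteins bring the RAS inactivator neurofibromin (NF1) to the membrane. Because many of these genes are themselves induced by ERK, their transcripts are widely read as a measure of recent ERK output, whereas DUSP1 is best known as a gene induced by stress and DUSP8 and DUSP10 encode phosphatases of JNK and p38.

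Promoter sequences are shown for the members whose level moved most and whose upstream window overlaps no annotated exon, that is DUSP1 and DUSP8, which were higher with cisplatin, and SPRY2, which was lower. Each is the 250 bases before the 5′-most transcript start in the RefSeq table of GRCh38.p14, written 5′ to 3′ on the strand of the gene. The table holds a window for 8 of the 10 members and none for DUSP4 and DUSP5. Capitals mark 3 motifs, the cyclic AMP response element TGACGTCA, the E-box CACGTG and the ETS-type site CCGGAA.
DUSP1 (chr5:172771196-172771445, minus strand): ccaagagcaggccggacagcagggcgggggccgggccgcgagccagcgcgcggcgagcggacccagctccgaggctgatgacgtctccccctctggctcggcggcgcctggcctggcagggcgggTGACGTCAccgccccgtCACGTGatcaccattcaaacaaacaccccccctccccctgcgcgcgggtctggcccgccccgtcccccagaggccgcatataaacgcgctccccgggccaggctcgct
DUSP8 (chr11:1572272-1572521, minus strand): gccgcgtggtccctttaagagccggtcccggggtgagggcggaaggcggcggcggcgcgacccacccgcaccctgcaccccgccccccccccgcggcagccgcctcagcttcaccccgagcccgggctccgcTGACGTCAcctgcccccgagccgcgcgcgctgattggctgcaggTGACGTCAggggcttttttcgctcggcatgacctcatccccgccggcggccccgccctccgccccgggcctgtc
SPRY2 (chr13:80341127-80341376, minus strand): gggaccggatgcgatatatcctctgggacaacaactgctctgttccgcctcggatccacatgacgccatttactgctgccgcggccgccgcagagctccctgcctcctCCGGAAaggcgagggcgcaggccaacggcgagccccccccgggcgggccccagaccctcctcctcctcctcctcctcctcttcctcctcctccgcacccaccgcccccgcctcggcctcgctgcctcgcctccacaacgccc
The letters TGACGTCA were found once in the DUSP1 window, at bases -125 to -118 from the start, and at 2 places in the DUSP8 window, at -118 to -111 and at -74 to -67. The windows of DUSP6, SPRY2, SPRY4, SPRED1, SPRED2 and DUSP10 did not hold them. On both strands, 1.65% of the 35116 promoter windows of this length in the table carried that motif. The E-box of the DUSP1 window lies at -108 to -103, and 6.34% of all windows had one. DUSP1 was also the member whose window held TATAAA, at -30 to -25, a run of letters found in 10.7% of windows. The CCGGAA of SPRY2 lies at -142 to -137, and 14.5% of all windows had it. The GC box GGGCGG, present in 42.6% of all windows, occurred 4 times each in the DUSP1 and DUSP8 windows, 3 times in that of DUSP10, 2 times in that of SPRY2, and 1 time each in those of SPRY4 and SPRED1. In 2 places it adjoins the capitals, since the GC boxes of DUSP1 at -132 to -127 and -117 to -112 flank its TGACGTCA without overlap. The AP-1 motif TGANTCA (6.57% of windows) and the CArG box of serum response factor (1.16%) were in none of the 8 windows, and the DUSP6 and SPRED2 windows held none of the 7 motifs searched. These are matches of letters, and no binding was measured. Unlike the printed windows, those of DUSP6, DUSP10, SPRY4, SPRED1 and SPRED2 overlap annotated exons, so they are not purely upstream sequence.

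Total counts ranged from 1510620 to 3517041 per library, so that 3 counts stand for between 8.53e-05% and 0.000199% of a library. Levels are given as CPM, the reads of a gene relative to the size of its library, scaled between libraries with trimmed-mean (TMM) factors. A change is called where edgeR's quasi-likelihood test over 11113 genes gives an adjusted p under 0.05 after Benjamini-Hochberg adjustment. No pair of replicate libraries agreed within counting noise, with a chi-square per degree of freedom of at least 2.24. Mitochondrial ribosomal RNA took 1.79% to 2.20% of counts in untreated cells and 2.10% to 2.53% with Tranilast, but 12.3% to 14.8% with Amphotericin B. It was uneven within the other conditions. With cisplatin alone it was 13.7%, 5.61% and 3.41% in replicates 1, 2 and 3, and with Telmisartan it was 10.8%, 12.9% and 3.61%. Cisplatin replicate 1 and Telmisartan replicate 3 stood apart from the other libraries of their conditions (chi-square per degree of freedom from 26.4 to 44.1), and the values of members whose calls changed without them are given below. Of the epithelial markers checked, KRT18 (97.4 to 157.0 CPM by library size), KRT8, EPCAM and CDH1 were detected in every library. KRT19 had 0 to 16 counts and MUC16 had 0 to 4, while PAX8 and WT1, which mark many ovarian carcinomas, had at most 1 count in any library. Bulk RNA cannot tell fewer cells with a transcript from less of it per cell.

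The question of the comparison of cisplatin with untreated cells was how the line itself responded. DUSP6, SPRY2 and SPRED1 fell, DUSP1 and DUSP8 rose, and DUSP5, SPRY4 and SPRED2 did not pass the test. Thus 5 of the 8 tested members were called, 2 higher and 3 lower, where 44.7% of all genes were called (21.1% higher and 23.6% lower). Whether the members' share differs from that of all genes was not tested, and 8 genes give only a rough share. The same 5 members had libraries that did not overlap between the conditions, as did 53.5% of all genes. The median log2 change of the 8 members was -0.43, beside -0.01 for all genes.

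Whole-gene coordinates follow the GENCODE 29 annotation of GRCh38. Among the brakes induced by ERK, DUSP6 (chr12:89347232-89353271, minus strand), a cytoplasmic phosphatase specific for ERK, had 461, 464 and 569 CPM in untreated replicates 1, 2 and 3. With cisplatin its level was 157, 45.1 and 78.2 CPM. All cisplatin libraries lay below all untreated ones, and replicate 1, the cisplatin library with the most mitochondrial ribosomal RNA, kept the highest level. The mean went from 498 ± 61.4 to 93.4 ± 57.4 CPM (SD, n = 3), and the fitted change was -2.42 ± 0.31 on the log2 scale (SE, adjusted p = 1.91e-05), or 5.36-fold lower. Without cisplatin replicate 1 the fitted log2 change was -3.02.

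SPRY2 (chr13:80335976-80340951, minus strand), which blocks signalling from receptor tyrosine kinases, went the same way. It had 159, 186 and 155 CPM in untreated libraries and 49.3, 23.5 and 34.2 CPM with cisplatin. The groups did not overlap, and the fitted log2 change was -2.23 ± 0.30 (SE, adjusted p = 2.62e-05), or 4.69-fold lower. SPRED1 (chr15:38252326-38357249, plus strand), a partner of NF1, had 50.4, 35.7 and 34.4 CPM in untreated cells and 6.72, 18.1 and 18.3 CPM with cisplatin. Here cisplatin replicate 1 was the lowest library rather than the highest. The log2 change of SPRED1 was -1.45 ± 0.30 (SE, adjusted p = 0.00109), and it was -0.92 (adjusted p = 0.00292) once the share of mitochondrial ribosomal RNA was a term of the model. Its relative SPRED2 (chr2:65310851-65432637, minus strand) had 15.9, 16.7 and 11.5 CPM before and 12.3, 5.40 and 9.93 CPM after cisplatin. These ranges overlap, and the log2 value was -0.67 ± 0.35 (SE, adjusted p = 0.124).

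SPRY4 (chr5:142310427-142326455, minus strand), the second Sprouty member, had 8.61, 8.34 and 10.4 CPM in untreated libraries and 12.3, 6.38 and 5.96 CPM with cisplatin (log2 -0.19, adjusted p = 0.698). DUSP5 (chr10:110497838-110511544, plus strand), a nuclear phosphatase of ERK, had 8.93, 9.78 and 7.38 CPM and then 3.36, 13.2 and 16.3 CPM (log2 0.38, adjusted p = 0.480). For both genes cisplatin replicate 1 lay on the opposite side of the untreated libraries from replicates 2 and 3. With mitochondrial ribosomal RNA as a term, DUSP5 passed the threshold (log2 0.95, adjusted p = 0.0288). The 2 remaining ERK-route and stress phosphatases were at the limit of detection. DUSP4 had 0 to 3 counts and DUSP10 0 to 2 counts in every library, so their response was not detectable at this depth.

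Of the phosphatases tied to stress kinases, DUSP1 (chr5:172768090-172771195, minus strand), also called MKP-1, had 1.28, 2.01 and 1.27 CPM in untreated cells. The counts behind these values were 4, 7 and 5 reads. With cisplatin it had 5.04, 9.81 and 6.75 CPM, from 9, 20 and 17 reads. Every cisplatin library was above every untreated one, with a log2 change of 2.22 ± 0.43 (SE, adjusted p = 0.00059), or 4.65-fold. DUSP8 (chr11:1554044-1571920, minus strand) had 7.01, 8.34 and 5.60 CPM in untreated cells. With cisplatin it had 16.8, 25.5 and 18.3 CPM. The ranges did not overlap and the log2 change was 1.53 ± 0.37 (SE, adjusted p = 0.00289), or 2.89-fold. Leaving out any library, or changing the scaling, the filter or the tool, ended none of the 5 calls against untreated cells. DUSP1 was not tested where the fit held the 6 libraries of the comparison alone, since it then failed the filter.

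**Figure D1:**
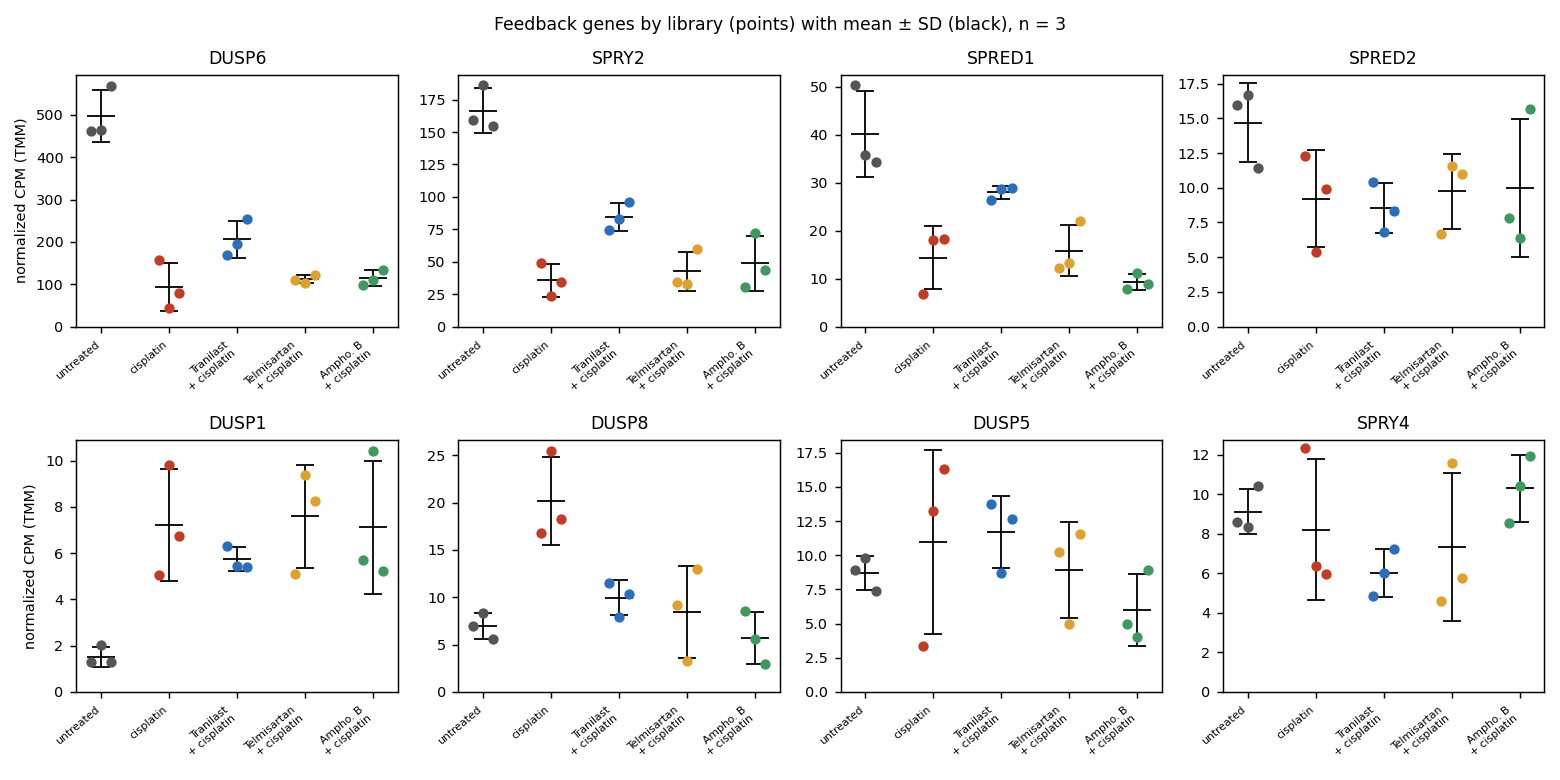
Normalized CPM of the 8 tested members (vertical axes, starting at 0) in each library of the 5 conditions. Points are libraries, the long bar is the mean and the short bars are ± SD (n = 3). DUSP6, SPRY2 and SPRED1 are highest in untreated cells, DUSP1 is lowest there, and DUSP8 is highest with cisplatin alone.

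Markers of other cell types were compared across the same libraries, as CPM by library size. The summed level of the leukocyte markers PTPRC, CD68 and CD3E was 75.4 to 89.0 CPM in untreated cells and 3.68 to 12.1 CPM with cisplatin. In the combinations it was 9.24 to 28.1 CPM (Tranilast), 4.07 to 9.72 CPM (Telmisartan) and 9.88 to 11.3 CPM (Amphotericin B). PTPRC itself ranged from 2.303 to 87.3 CPM. CD3E was at 0 in every library and CD68 had at most 6 counts. Stromal markers (COL1A1, COL3A1, DCN and LUM) summed to 21.9 to 25.01 CPM in untreated cells and 16.1 to 32.4 CPM with cisplatin, and the endothelial marker VWF was at 0 throughout. Whether PTPRC marks separate cells or is a transcript of the line itself was not tested, nor was any link to the change of the members. Mitochondrial ribosomal RNA entered an alternative fit as a term, but its part as a cause was not tested. Its share was at most 2.53% in untreated cells and with Tranilast. With cisplatin alone, Telmisartan or Amphotericin B it was at least 3.41%. In comparisons across that gap the term cannot be fully told apart from the condition.

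The ratio of 2 members within a library does not depend on how libraries are scaled. A share taken with DUSP6 also rises where DUSP6 falls, so it does not show by itself that the other gene rose. DUSP1 was 0.276%, 0.432% and 0.223% of the reads on DUSP1 and DUSP6 together in untreated cells. With cisplatin alone it was 3.11%, 17.9% and 7.94%, with exact 95% binomial (Clopper-Pearson) intervals of 1.43% to 5.83%, 11.3% to 26.2% and 4.70% to 12.4% that cover counting error only. No interval of a cisplatin library reached those of the untreated libraries, the highest of which ended at 0.888%. The share of DUSP8 among DUSP8 and DUSP6 reads was 1.5%, 1.77% and 0.975% in untreated cells and 9.68%, 36.1% and 18.9% with cisplatin. By contrast SPRY2, which fell beside DUSP6, kept a share of 23.9%, 34.3% and 30.4% of the SPRY2 and DUSP6 reads, against 25.6%, 28.6% and 21.4% in untreated cells. The SPRED1 share of SPRED1 and DUSP6 reads had no such order, at 9.84%, 7.14% and 5.70% untreated and 4.11%, 28.7% and 18.9% with cisplatin.

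**Figure D2:**
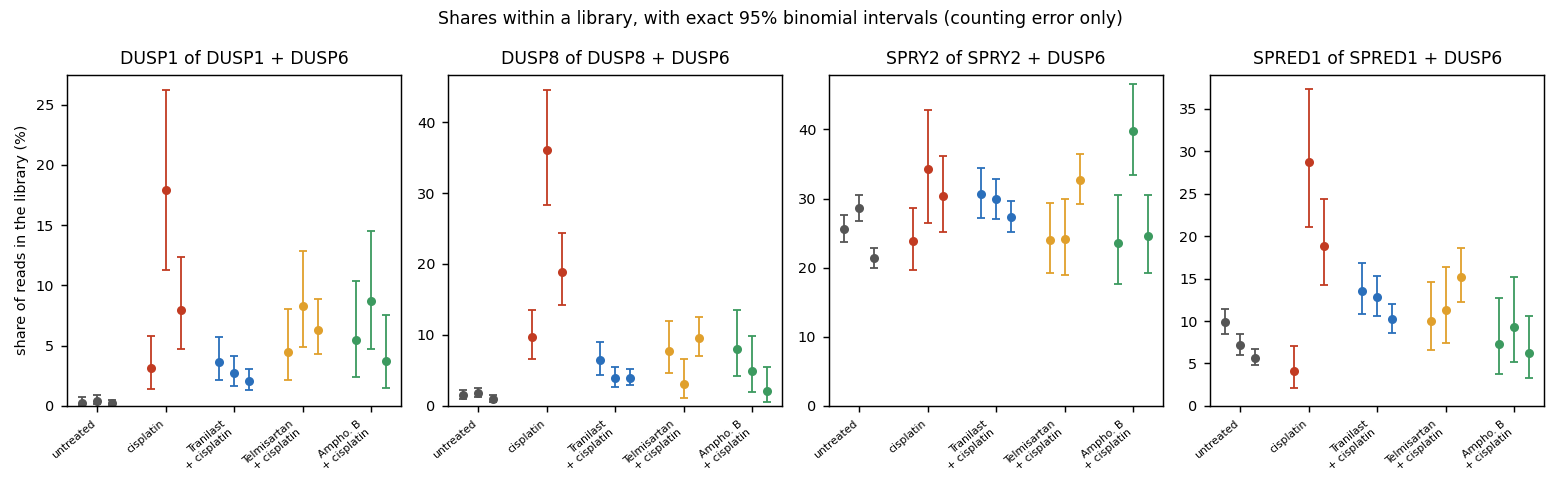
Share of one member's reads among its own and the DUSP6 reads of the same library (vertical axes, %), for DUSP1, DUSP8, SPRY2 and SPRED1 in the 15 libraries. Points are libraries and bars are exact 95% binomial intervals for counting error. The DUSP1 and DUSP8 shares are lowest in all 3 untreated libraries, and the SPRY2 share runs from 21.4% to 39.8% over all conditions.

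With all 10 members summed, their reads amounted to 830, 848 and 920 CPM in untreated cells (by library size). They amounted to 189, 139 and 202 in cells with cisplatin alone. The combinations had 394, 419 and 535 (Tranilast), 170, 156 and 310 (Telmisartan) and 130, 189 and 182 (Amphotericin B). The sum was therefore highest in untreated cells and second highest with Tranilast, without overlap with any other condition. DUSP6 and SPRY2 made up 87.1%, 88.9% and 91.0% of the members' reads in untreated cells and 78.3%, 46.4% and 59.7% with cisplatin, so the sum follows these 2 genes.

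The comparison of each combination with cisplatin alone shows how cells given a drug first differed from cells given only cisplatin. Without a condition of the drug alone, a drug's own effect cannot be told apart from a changed response to cisplatin. With Tranilast, an anti-allergic drug, DUSP6, SPRY2 and SPRED1 were higher and DUSP8 was lower than with cisplatin alone, each opposite in sign to its change with cisplatin. Since both comparisons rest on the same cisplatin libraries, opposite signs are not independent. Of the 8 tested members 4 were called, 3 higher and 1 lower, where 22.2% of all genes were called (10.5% higher and 11.6% lower). The same 4 had libraries that did not overlap, as did 40.3% of all genes, and the median log2 change of the members was -0.03 beside 0.02 for all genes.

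DUSP6 had 168, 195 and 255 CPM with Tranilast, against 157, 45.1 and 78.2 CPM with cisplatin alone. The lowest Tranilast library was just above cisplatin replicate 1, and the log2 change was 1.15 ± 0.30 (SE, adjusted p = 0.0126), or 2.22-fold. It was 1.75 without cisplatin replicate 1, and 0.82 (adjusted p = 0.0596) without cisplatin replicate 2. SPRY2 had 74.4, 83.1 and 95.9 CPM, above all 3 cisplatin libraries, with a log2 change of 1.25 ± 0.30 (SE, adjusted p = 0.0074). This was the one of the 4 calls that held under all 27 alternative settings, with log2 changes from 1.03 to 1.74. SPRED1 had 26.4, 28.6 and 28.9 CPM, with an SD of 1.35 CPM (n = 3). Its log2 change was 0.94 ± 0.31 (SE, adjusted p = 0.0366). That call was lost under 8 of the 27 settings, among them the fit without cisplatin replicate 1 (log2 0.63, adjusted p = 0.0867) and the fit with mitochondrial ribosomal RNA as a term (log2 0.43, adjusted p = 0.200).

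DUSP8, the phosphatase of JNK and p38, had 11.5, 7.90 and 10.4 CPM with Tranilast, all below the 16.8 to 25.5 CPM of cisplatin alone. The log2 change was -1.03 ± 0.35 (SE, adjusted p = 0.0448). It was lost under 13 of the 27 settings, including the replicate number as a block and scaling by library size only, where the log2 value was -0.58 (adjusted p = 0.323). DUSP1 overlapped its range with cisplatin alone, at 6.33, 5.45 and 5.42 CPM (log2 -0.34, adjusted p = 0.520). DUSP5 had 13.8, 8.72 and 12.6 CPM (adjusted p = 0.946), SPRY4 4.84, 5.997 and 7.22 CPM (adjusted p = 0.461) and SPRED2 10.4, 6.81 and 8.35 CPM (adjusted p = 0.844). DUSP1 and DUSP8, both higher with cisplatin, thus had different calls with Tranilast, but whether their changes differ from each other was not tested. DUSP1 made up 3.62%, 2.72% and 2.08% of the DUSP1 and DUSP6 reads with Tranilast, and DUSP8 made up 6.42%, 3.89% and 3.92% of the DUSP8 and DUSP6 reads, all above the untreated shares. With DUSP6 below untreated cells in the same libraries, a higher share does not show that the other gene rose.

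**Figure D3:**
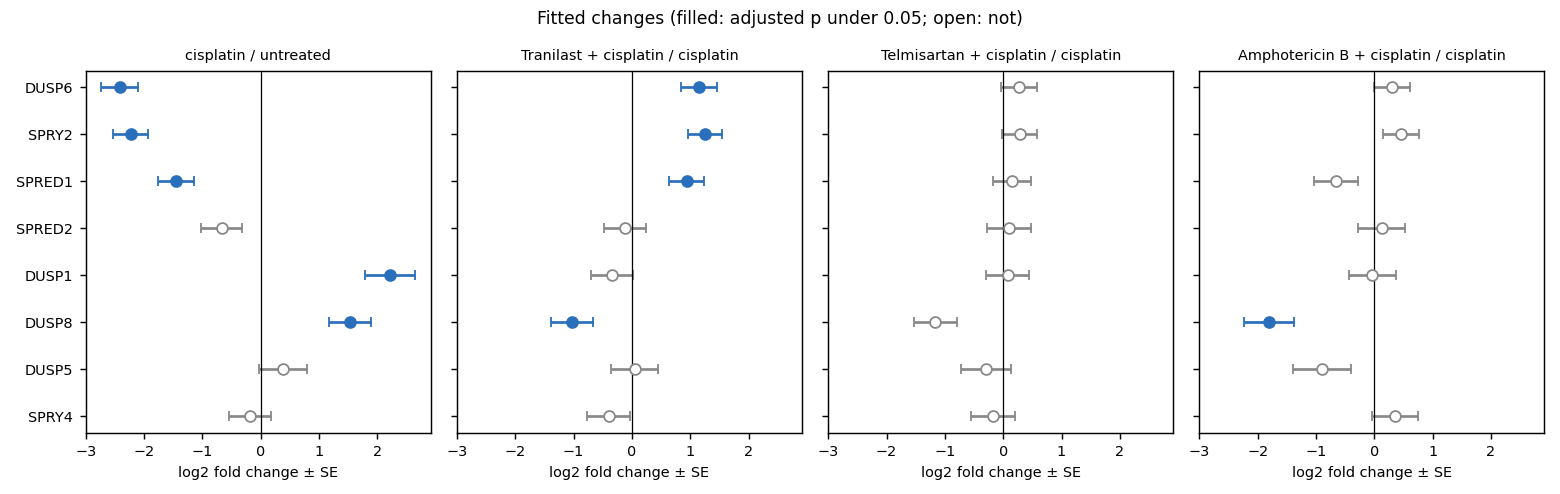
Fitted log2 fold change ± SE of the 8 tested members (horizontal axes) in cisplatin against untreated cells and in each combination against cisplatin alone. Filled points have an adjusted p under 0.05. DUSP6, SPRY2 and SPRED1 are below 0 with cisplatin and above 0 with Tranilast, whereas DUSP8 is above 0 with cisplatin and below 0 with each drug, past the threshold with Tranilast and Amphotericin B.

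With Telmisartan, an angiotensin receptor blocker, no member was called, and 0% of all genes were called by edgeR's quasi-likelihood test. Without adjustment, 1150 genes (10.3%) had a p under 0.05, and DUSP8 was the member among them. DUSP8 had 9.19, 3.31 and 12.9 CPM, all below cisplatin alone, with a log2 value of -1.17 ± 0.37 (SE, adjusted p = 0.315). The libraries of the other members overlapped those of cisplatin alone, and the share of all genes without overlap was not counted here. DUSP6 had 110, 104 and 123 CPM (log2 0.27, adjusted p = 0.810). SPRY2 had 34.7, 33.1 and 59.7 CPM (log2 0.28, adjusted p = 0.799), and SPRED1 had 12.2, 13.3 and 22.02 CPM (log2 0.16, adjusted p = 0.914). In both genes the highest value was that of replicate 3, the Telmisartan library with 3.61% of mitochondrial ribosomal RNA. DUSP1 had 5.10, 9.39 and 8.26 CPM, and DUSP5 had 10.2, 4.97 and 11.6 CPM. SPRY4 had 4.59, 11.6 and 5.78 CPM and SPRED2 had 6.63, 11.6 and 11.01 CPM, and all 4 had an adjusted p of 0.873 or more. Without cisplatin replicate 1, DUSP6 was called higher with Telmisartan (log2 0.89, adjusted p = 0.0384), in a fit that called 4.81% of all genes. With mitochondrial ribosomal RNA as a term DUSP8 was called lower (log2 -1.10, adjusted p = 0.0457), in a fit that called 3% of all genes.

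With Amphotericin B, an antifungal that binds membrane sterols, DUSP8 was lower than with cisplatin alone and no other member was called. This is 1 of 8 tested members, where 13.2% of all genes were called (4.21% higher and 9.01% lower). DUSP8 had 8.53, 5.61 and 2.98 CPM, from 12, 7 and 4 reads, and these libraries lay below all cisplatin ones. How many of all genes were without overlap in this comparison was not counted. The log2 change was -1.81 ± 0.43 (SE, adjusted p = 0.0137), or 3.50-fold lower. That call was lost under 5 of the 27 settings, among them the fit without cisplatin replicate 2 (adjusted p = 0.0816) and the one with mitochondrial ribosomal RNA as a term (log2 -1.34, adjusted p = 0.0857). DUSP6 had 98.8, 109 and 135 CPM (log2 0.30, adjusted p = 0.526), within the range of cisplatin alone. SPRY2 had 30.6, 72.2 and 44.0 CPM (log2 0.46, adjusted p = 0.327). SPRED1 had 7.82, 11.2 and 8.94 CPM (log2 -0.65, adjusted p = 0.241). DUSP5 had 4.98, 4.01 and 8.94 CPM (log2 -0.90, adjusted p = 0.221). DUSP1 (5.69, 10.4 and 5.22 CPM), SPRY4 (8.53, 10.4 and 11.9 CPM) and SPRED2 (7.82, 6.42 and 15.7 CPM) overlapped cisplatin alone and had an adjusted p of 0.562 or more. Without cisplatin replicate 1, the count of members called rose from 1 to 4, with DUSP6 higher (log2 0.92, adjusted p = 0.00739) and DUSP5 (log2 -1.26), SPRED1 (log2 -0.93) and DUSP8 lower, while the share of all genes called rose to 33.8%.

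The combinations were also set against untreated cells, to see which members still differed from them. With Tranilast 3 members were still called, 1 higher and 2 lower, where 8.1% of all genes were (2.44% higher and 5.66% lower). DUSP6 remained 2.42-fold below untreated cells (log2 -1.27, adjusted p = 0.011), SPRY2 was 1.97-fold below (log2 -0.98, adjusted p = 0.0351) and DUSP1 was 3.67-fold above (log2 1.87, adjusted p = 0.00931). SPRED1 was not called against untreated cells (log2 -0.52, adjusted p = 0.304), nor was DUSP8 (log2 0.50, adjusted p = 0.472). All Tranilast libraries of SPRED1 were below all untreated ones, as were those of SPRY4 and of SPRED2 (log2 -0.79, adjusted p = 0.165). The share of all genes without overlap was not counted in this comparison. It was 53.5% for cisplatin against untreated cells and 40.3% for Tranilast against cisplatin alone, so a lack of overlap is common in these data. A missing call does not show a return to the untreated level. The call of SPRY2 was lost under 8 of the 27 settings and that of DUSP6 under 4, and without untreated replicate 3 no member was called (0 of 8), in a fit that called 3.55% of all genes. Conversely, SPRED1 (adjusted p = 0.012) and SPRED2 passed the threshold from the libraries of this comparison alone, in a fit that called 36.4% of all genes. SPRED2 also passed it with mitochondrial ribosomal RNA as a term, where 22.2% of all genes were called. Telmisartan and Amphotericin B each left 4 members called, DUSP1 higher and DUSP6, SPRY2 and SPRED1 lower, where 28.7% of all genes were called with Telmisartan (12.8% higher and 15.8% lower) and 40.9% with Amphotericin B (17.6% higher and 23.3% lower). With Telmisartan the log2 changes were 2.29, -2.15, -1.95 and -1.29 in that order, and with Amphotericin B they were 2.18, -2.12, -1.77 and -2.10. The adjusted p was 0.00392 or less for all of them. The SPRED1 calls of both were lost with mitochondrial ribosomal RNA as a term (adjusted p = 0.0898 and 0.235). Neither combination overlapped untreated cells in that share, so the term cannot be fully told apart from the condition. DUSP8 was not called against untreated cells in any combination, although its adjusted p was 0.00289 with cisplatin alone.

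Directly compared, Tranilast gave higher levels than Amphotericin B in 3 members, where 36% of all genes were called (19.7% higher and 16.4% lower). SPRED1 differed most (log2 1.59 ± 0.35, adjusted p = 0.00301), followed by DUSP6 (log2 0.85 ± 0.30, adjusted p = 0.0352) and SPRY2 (log2 0.80 ± 0.30, adjusted p = 0.0433). The median log2 difference of all genes in this comparison was 0.15, so these are to be read against that shift. With DESeq2's own size factors, or RLE or upper quartile factors in edgeR, 1 call was left, and with mitochondrial ribosomal RNA as a term the SPRED1 difference was 0.28 (adjusted p = 0.829). That share was 2.10% to 2.53% with Tranilast and 12.3% to 14.8% with Amphotericin B. The term therefore cannot be told apart from the condition here, and its fit does not settle the SPRED1 difference. Against Telmisartan, all Tranilast libraries were above for DUSP6, SPRY2 and SPRED1, but with adjusted p of 0.0957, 0.0687 and 0.133 no member was called, where 2.34% of all genes were (0.585% higher and 1.75% lower). All 3 Tranilast libraries were above all 3 Telmisartan libraries in 15.1% of all genes. Thus the higher level of these 3 genes with Tranilast was not shown to differ from Telmisartan in the fit of all libraries, and all 3 passed the threshold when cisplatin replicate 1 or Telmisartan replicate 3 was left out. Those fits called 10.2% and 24.4% of all genes. Telmisartan and Amphotericin B differed in no member and in 0% of genes, with 2283 genes (20.5%) under an unadjusted p of 0.05.

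**Figure D4:**
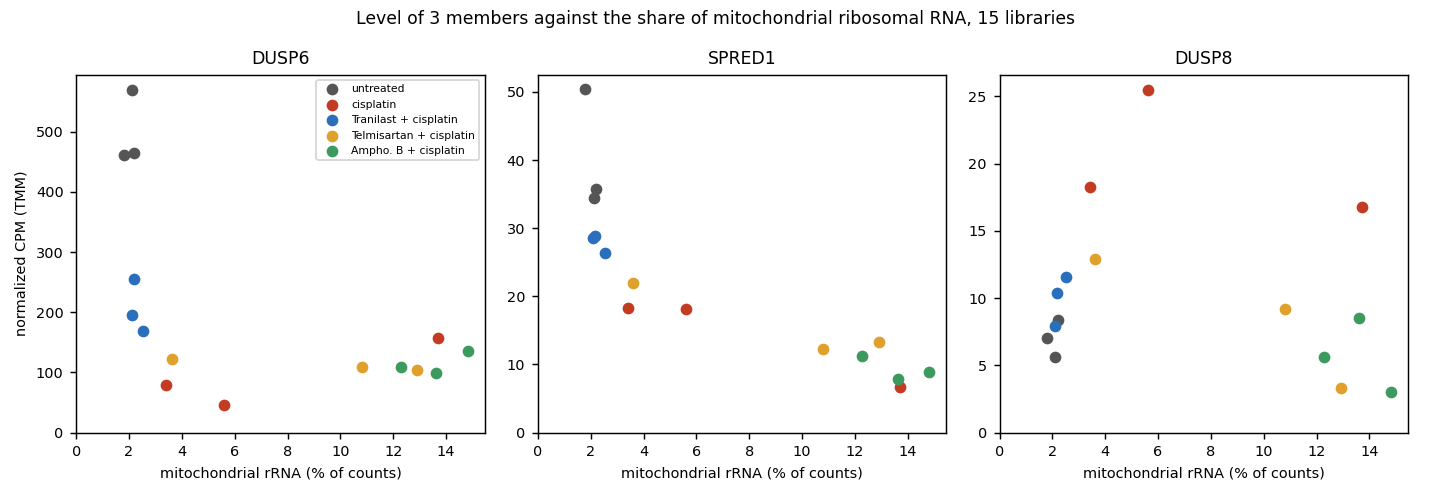
CPM of DUSP6, SPRED1 and DUSP8 (vertical axes) against the share of mitochondrial ribosomal RNA (horizontal axes, % of counts) in the 15 libraries, coloured by condition. SPRED1 is lower in libraries with a larger share also within the cisplatin and Telmisartan conditions, whereas the cisplatin library with the largest share has the highest DUSP6 of its condition.

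Within 2 conditions SPRED1 was lower in the libraries with more mitochondrial ribosomal RNA. Cisplatin replicate 1, with 13.7%, had 6.72 CPM, whereas replicates 2 and 3, with 5.61% and 3.41%, had 18.1 and 18.3 CPM. Telmisartan replicate 3, with 3.61%, had 22.02 CPM, against 12.2 and 13.3 CPM in replicates 1 and 2, with 10.8% and 12.9%. DUSP6 did not show this order in the cisplatin libraries. DUSP6 and SPRY2 varied together over the 15 libraries (Pearson r of log2 CPM 0.94, Spearman rho 0.93), DUSP6 and SPRED1 less so (r 0.65), and DUSP1 ran opposite to DUSP6 (r -0.88). These coefficients are descriptions over libraries that share 5 conditions, and much of them is the difference between conditions.

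The other genes of the route were read from lists by role, whose counts are to be read against the shares of all genes called, which were 44.7% with cisplatin against untreated cells, and 22.2% with Tranilast and 13.2% with Amphotericin B against cisplatin alone. Of 7 other MAP kinase phosphatases and small dual-specificity phosphatases, 6 were tested, and with cisplatin 4 rose and 1 fell (median log2 1.08). This list is a choice. The genes DUSP11, DUSP12, DUSP15, DUSP18, DUSP19 and DUSP28, looked up after values were seen, were tested too, and edgeR's quasi-likelihood test called 0 of these 6 with cisplatin (adjusted p of 0.122 or more, and 0 under an unadjusted p of 0.05). DUSP9, which acts on ERK, went from 26.0 ± 4.58 to 55.6 ± 8.41 CPM (SD, n = 3, log2 1.10, adjusted p = 0.000534). DUSP3, also called VHR, went from 101 ± 6.30 to 209 ± 65.6 CPM (log2 1.05, adjusted p = 0.00229). DUSP22, a small phosphatase of the JNK route, fell from 166 ± 3.04 to 83.0 ± 17.0 CPM (log2 -1.005, adjusted p = 0.000762). With Tranilast DUSP22 was higher (log2 0.61, adjusted p = 0.0363) and DUSP2, a nuclear phosphatase, lower (log2 -1.13, adjusted p = 0.0332) than with cisplatin alone, and with Amphotericin B DUSP3 was lower (log2 -1.03, adjusted p = 0.0139). Phosphatases of one family therefore moved in both directions with cisplatin, with DUSP6 and DUSP22 lower and DUSP1, DUSP3, DUSP8 and DUSP9 higher. Scaling by library size only shifted the median of all genes to -0.36. Of the 6 tested list genes it left 2 of the 4 increases, and the decrease of DUSP22.

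Of the 3 other Sprouty and SPRED genes, SPRY1 passed the filter. It fell with cisplatin from 227 ± 30.1 to 48.7 ± 18.4 CPM (log2 -2.22 ± 0.25 SE, adjusted p = 7.50e-06) and had 148 ± 10.1 CPM with Tranilast (log2 1.60 against cisplatin, adjusted p = 0.00136). SPRY1 was thus called in the same directions as SPRY2, whereas SPRY4 was not called. With Telmisartan and Amphotericin B it had 77.6 and 72.2 CPM (adjusted p = 0.370 and 0.135).

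Further up the route, 12 of 12 genes for RAS, its exchange factors, adaptors and GTPase activators were tested, with 1 higher and 5 lower in cisplatin (median log2 -0.46). NF1, the RAS inactivator that SPRED1 recruits, fell (log2 -1.69, adjusted p = 0.00136), as did RASA1, another RAS inactivator (log2 -1.41, adjusted p = 0.00178), and SOS2, a RAS exchange factor (log2 -1.65, adjusted p = 0.00776). Inhibitors and an activator of RAS thus fell together. With Tranilast NF1 (log2 1.23, adjusted p = 0.024) and SOS2 (log2 1.34, adjusted p = 0.0446) were higher than with cisplatin alone. Among receptors and EGF-family ligands 7 of 14 were tested and all 7 were called with cisplatin, 2 higher and 5 lower (median log2 -1.06). The ligand HBEGF rose from 2.29 ± 1.42 to 31.0 ± 13.6 CPM (log2 3.76, adjusted p = 6.97e-06), and the ligand NRG1 fell from 355 ± 12.1 to 44.5 ± 51.9 CPM (log2 -3.03, adjusted p = 0.000258). The receptor ERBB3, which binds NRG1, fell as well (log2 -2.67, adjusted p = 4.17e-05). With Tranilast HBEGF (log2 -2.06, adjusted p = 0.00192) and FGFR3 (log2 -2.05, adjusted p = 0.00693) were lower than with cisplatin alone. These were the 2 genes of this list called lower, and ERBB3 was the 1 called higher.

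Of the RAF, MEK and ERK kinases 7 of 8 were tested, with 1 higher and 2 lower in cisplatin (median log2 -0.11). BRAF had a log2 change of -1.67 (adjusted p = 0.0137) and MAPK3, which encodes ERK1, one of 0.71 (adjusted p = 0.034). The MAPK3 call was lost without cisplatin replicate 1 (log2 0.41, adjusted p = 0.193), with mitochondrial ribosomal RNA as a term and with library size only. MAP2K2, which encodes MEK2, was higher with Amphotericin B than with cisplatin alone (log2 0.85, adjusted p = 0.0169). In the JNK and p38 cascades 12 of 13 genes were tested, with 2 higher and 4 lower in cisplatin (median log2 -0.32). MAP2K6, an activator of p38, fell (log2 -1.81, adjusted p = 0.000106), as did MAPK8, which encodes JNK1 (log2 -1.33, adjusted p = 0.00261), and its activator MAP2K4 (log2 -1.30, adjusted p = 0.00884). MAPK8 was higher with Tranilast than with cisplatin alone (log2 1.25, adjusted p = 0.0106), and MAP2K7 was lower with Amphotericin B (log2 -0.66, adjusted p = 0.0342).

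Of 12 ERK-responsive transcripts outside these families 9 were tested, with 2 higher and 4 lower in cisplatin (median log2 -0.59). ETV1 (log2 -2.13, adjusted p = 0.000247) and ETV5 (log2 -1.54, adjusted p = 0.000429), ETS factors induced by ERK, fell, while CCND1, the gene of cyclin D1, rose (log2 0.98, adjusted p = 0.000592). With Tranilast ETV5 (log2 1.29, adjusted p = 0.00587) and ETV1 (log2 1.58, adjusted p = 0.00796) were higher than with cisplatin alone. CCND1 and FOS were called lower, so 2 of the 9 tested genes were higher and 2 lower. Without cisplatin replicate 1 the CCND1 call held (log2 -0.81, adjusted p = 0.00247) and that of FOS did not (log2 -1.56, adjusted p = 0.148). With Amphotericin B CCND1 was lower (log2 -1.24, adjusted p = 0.00356) and the immediate early gene FOS higher (log2 2.44, adjusted p = 0.0135). ERK-responsive genes thus moved in both directions, with ETV1 and ETV5 in the direction of DUSP6 and SPRY2. Over all 7 lists no gene was called with Telmisartan against cisplatin, where 0% of all genes were, and 5 list genes had an unadjusted p under 0.05. Without cisplatin replicate 1, 1 gene of the RAS list and 1 of the receptors and ligands were called higher with Telmisartan and 1 ERK-responsive gene lower, beside the 4.81% of all genes.

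Some calls of list genes depended on the libraries and the model. Of 34 list genes called with cisplatin against untreated cells, 31 held without cisplatin replicate 1, 27 with mitochondrial ribosomal RNA as a term and 27 with library size only. MAP2K4 was among those lost with the term (log2 -0.59, adjusted p = 0.0834), and DUSP3 (log2 0.75, adjusted p = 0.0957) and CCND1 (log2 0.67, adjusted p = 0.0682) were lost with library size only. Of 13 called with Tranilast, 11 held without cisplatin replicate 1, where SOS2 was lost (log2 1.06, adjusted p = 0.0914), 10 with the term and 10 with library size only. All 6 called with Amphotericin B held without cisplatin replicate 1, but with the term CCND1 alone held, while DUSP3, MAP2K2, MAP2K7 and FOS (adjusted p = 0.0885) were among the other 5.

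**Figure D5:**
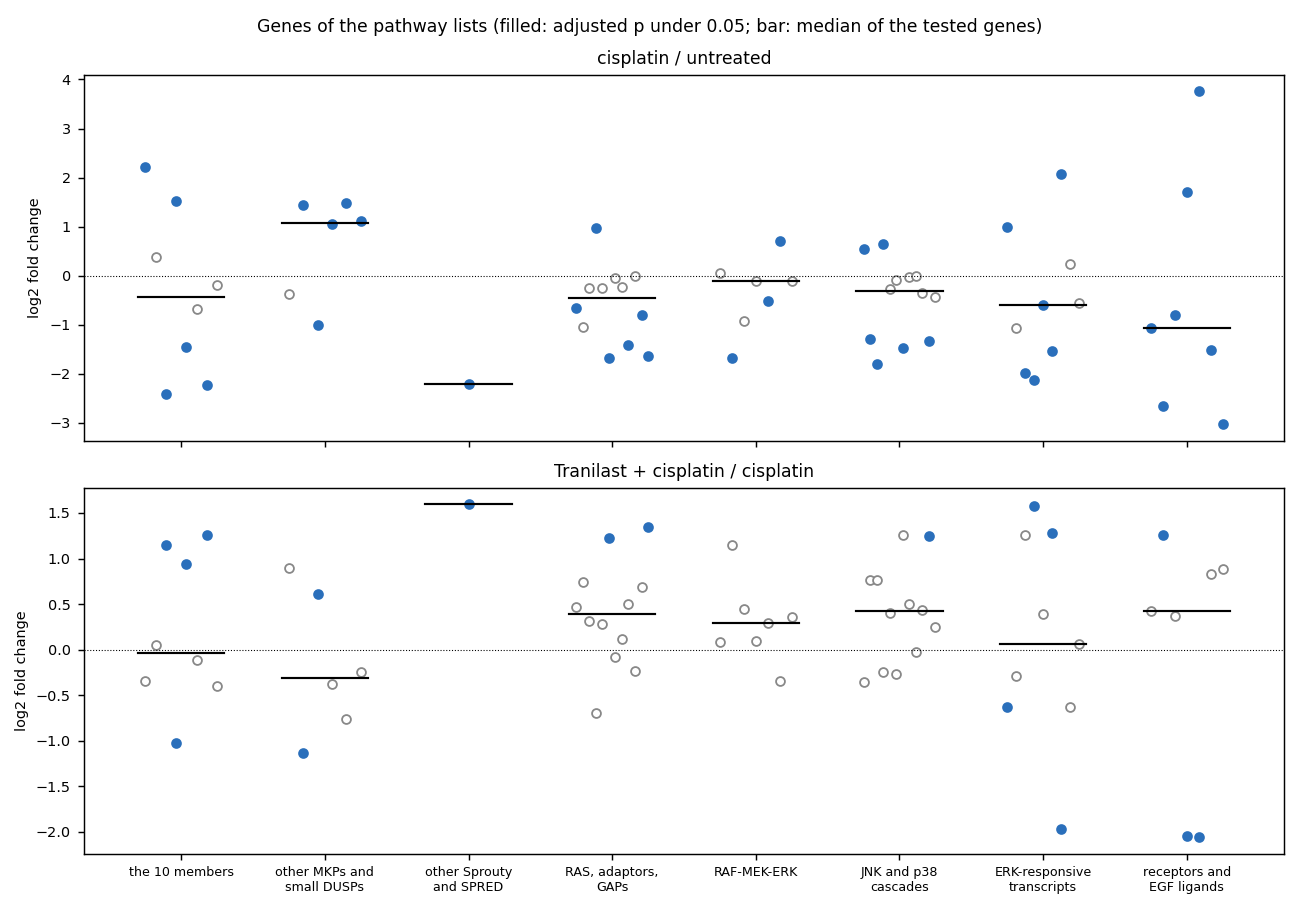
Log2 fold change (vertical axes) of every tested gene of the members and of 7 lists of the route, in cisplatin against untreated cells (top) and Tranilast with cisplatin against cisplatin alone (bottom). Filled points have an adjusted p under 0.05 and bars are the medians of the tested genes. In the top panel all 7 tested receptors and ligands are past the threshold, and every list with more than 1 tested gene has genes on both sides of 0.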

How the data were processed

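QuantSeq 3′ mRNA libraries were made by the authors from 100 ng of total RNA per sample and sequenced as single reads of 75 bp. The deposited files hold raw read counts per Ensembl gene for each of the 15 libraries, without normalization. The submitters' processing notes name STAR 2.3.0, HTSeq and the build hg19, and the use of strand in counting is not given in the sources used here. Reads of a gene and of a partner on the opposite strand therefore may not be told apart, but the partners of DUSP1, DUSP8 and SPRY4 found in the tables had at most 4 counts. Names and positions came from GENCODE 29 (GRCh38), which matched 45776 of 47634 identifiers. Genes were filtered with filterByExpr, scaled with TMM factors and tested with edgeR 4.0.16 (R 4.3.3, limma 3.58.1, DESeq2 1.42.0) by a quasi-likelihood fit of all 15 libraries with a term for each condition, with Benjamini-Hochberg adjustment inside each of 10 comparisons. The SE is the size of the log2 change over the square root of F. Log2 CPM used a prior count of 2. Summaries used Python 3.11.15 with pandas 2.3.3 and scipy 1.17.1. The fit was tested on simulated data. DUSP14 and PECAM1 were not matched by name. Members and lists were chosen with earlier results of these data known. Named list genes are the 3 with the smallest adjusted p in cisplatin against untreated cells and the 2 with the smallest in each combination against cisplatin, past the threshold. A gene that this rule selects is not reported here. Alternatives were other tests, scalings, filters, thresholds and libraries left out in turn, a block for the replicate number, and mitochondrial ribosomal RNA as a covariate. The values without 2 libraries that stand apart, and the lists under each alternative, were added after seeing the data. The sample titles do not say whether equal replicate numbers pair the samples. In no comparison did all 3 same-numbered pairs deviate together with a correlation above 0.1. For Telmisartan against cisplatin the correlations were 0.31, -0.17 and 0.63 in replicates 1, 2 and 3.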

Additional observations from a re-analysis of the deposited data

How the results depend on the processing

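Of 24 member calls over 10 comparisons, 12 held under each of the 27 alternatives that could test them, and none changed sign. Leaving out 1 library at a time gave 5 to 5 called members for cisplatin against untreated cells, 1 to 4 for Tranilast, 0 to 1 for Telmisartan and 0 to 4 for Amphotericin B against cisplatin alone. Against untreated cells it gave 0 to 3 for Tranilast and 4 to 4 for both Telmisartan and Amphotericin B. It gave 1 to 3 for Tranilast against Amphotericin B, 0 to 3 for Tranilast against Telmisartan and 0 to 0 for Telmisartan against Amphotericin B. With a block for the replicate number, 5, 3, 0 and 1 members were called for cisplatin against untreated cells and for Tranilast, Telmisartan and Amphotericin B against cisplatin. DUSP8 was the call lost with Tranilast, and SPRY2 was lost in Tranilast against Amphotericin B, where 2 were left. Under the block the log2 value of the first was -1.04 (adjusted p = 0.0542) and that of the second 0.80 (adjusted p = 0.0509). Whether equal numbers pair the samples is not given by the titles. For Tranilast against cisplatin, 2 members were called from the libraries of the comparison alone and 1 at a threshold of 0.01. For Amphotericin B against cisplatin, 0 were called from the libraries of the comparison alone, at 0.01 and with mitochondrial ribosomal RNA as a covariate, which gave 1 for Telmisartan. For Tranilast against untreated cells, 5 were called from the libraries of the comparison alone, beside 36.4% of all genes, and 1 at 0.01. For Tranilast against Amphotericin B, 1 was called with DESeq2, RLE factors, upper quartile factors, the covariate or 0.01, and 5 with library size only, beside 54.7% of all genes. For Tranilast against Telmisartan, 2 were called with the likelihood ratio test or without a filter, and 1 with DESeq2 or the covariate. Apart from those that use fewer libraries or a stricter threshold by construction, the cause was not tested. Depth limits DUSP4 and DUSP10 most, with at most 3 reads in any library.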

Other observations

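The 4 genes whose log2 CPM ran closest to that of DUSP6 over the 15 libraries, among 8546 genes whose mean log2 CPM reached 3, were HLTF (Pearson r 0.988), KIAA0319L (0.985), ATP11B (0.984) and EMP1 (0.984). HLTF, which encodes a DNA translocase of replication stress, had mean levels of 133, 47.8, 78.2, 53.6 and 56.4 CPM in untreated cells, with cisplatin, and with Tranilast, Telmisartan and Amphotericin B before cisplatin. EMP1, a membrane protein gene, had 2065, 715, 1086, 786 and 748 CPM in the same order. Both were highest in untreated cells and second highest with Tranilast, like DUSP6. For DUSP8 the closest genes were YTHDC1 (r 0.905), a reader of methylated adenosine in RNA, ZNF800 (0.890), OTUD3 (0.886) and MRPL57 (0.879). YTHDC1 had 49.4, 78.8, 51.0, 49.5 and 40.7 CPM, with its peak in cisplatin alone as for DUSP8. These correlations were picked as the highest of many over libraries that share 5 conditions, and they carry no test.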
